A study of Mus musculus with 24 samples.

Results

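The transcriptome of quadriceps femoris muscle was measured in mice that lack the transcription factor HSF1 (Hsf1-/-) after oral dosing with the HSP90 inhibitor HSP990 or with vehicle. The comparison rests on 4 of the 24 libraries of the series: 2 from Hsf1-/- mice given HSP990 and 2 from Hsf1-/- mice given vehicle. By the labels, HSP990 was given at 12 mg/kg with 0.2% methyl cellulose and 0.9% saline, and vehicle was 0.9% saline. Methyl cellulose is thus named for the treated mice only, and whether the vehicle held it too was not settled. All 4 mice were 8 weeks old, on a CBA x C57BL/6 F1 background, and muscle was taken 4 hours after dosing. The labels give a homozygous knockout and no restriction to muscle, so other organs and blood cells lacked HSF1 too. Wild type mice of the same strain and the same treatments were 12 weeks old, again with 2 per group, so age and genotype cannot be told apart in any difference between them. R6/2 mice, 12 weeks old and carrying a transgene that models Huntington disease, had the same HSP990 and vehicle groups of 2. Hsf1-/- mice 10 weeks old, taken 4 hours after a whole-body heat shock (HS) or a mock heat shock, gave a further pair of groups of 2, and wild type mice 12 weeks old after HS are quoted once. The labels number the samples of a group and say no more of what a replicate shares.

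HSP90 is a cytosolic chaperone that holds many kinases, nuclear receptors and transcription factors in an active fold. When it is inhibited, HSF1 is released from chaperone control, binds heat shock elements and switches on the genes for heat shock proteins, the heat shock response. A separate stress pathway, the integrated stress response, acts through the transcription factor ATF4, which pairs with C/EBP family proteins and raises genes for amino acid uptake, serine synthesis and tRNA charging. The question here was which transcripts change under HSP90 inhibition in muscle when HSF1 is absent.

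The libraries held 25386592 and 28337990 counts for vehicle, and 46599238 and 24940677 counts for HSP990, within a range of 22450177 to 46599238 over the series. Levels are stated in CPM, the count of a gene divided by the scaled library total. The TMM factors used for that scaling set the bulk of genes equal between libraries. Hsf1 itself was counted at 28.7 and 27.5 CPM after vehicle and 21.1 and 27.6 CPM after HSP990, against 52.9 to 65.3 CPM in the 4 wild type libraries of this treatment. The count covers the whole gene, so the deleted stretch could not be read separately. The markers of skeletal muscle fibres dominated all 4 libraries, with 10 markers summing to 279579 and 300528 CPM after vehicle and to 221275 and 240628 CPM after HSP990. The library HSP990 replicate 1 also carried more transcripts of fat cells. Its 12 adipocyte markers summed to 4702 CPM, against 2573 and 3968 CPM after vehicle and 2393 CPM in HSP990 replicate 2, and its Ucp1, the uncoupling protein of brown fat, was at 495 CPM, against 2.21, 18.8 and 0.307 CPM. No adipocyte marker was at 0 in any of the 4 libraries. The part of these transcripts in the counts of called genes was not tested directly, and calls without that library are given below.

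By edgeR, HSP990 changed few transcripts in Hsf1-/- muscle. At an adjusted p below 0.05 (edgeR quasi-likelihood test over 13754 genes, Benjamini-Hochberg), 30 genes were called, 0.218% of those tested. Of these, 23 rose, or 0.167%, and 7 fell, or 0.0509%. In each of the 30, both HSP990 libraries lay on the same side of both vehicle libraries, which the choice of called genes nearly fixes. Over all genes tested this was so for 18.7% upwards and 19.4% downwards. Unadjusted, 1304 genes had a p below 0.05, 717 of them higher and 587 lower after HSP990. DESeq2 on the same 24 libraries called 142 genes, 88 higher and 54 lower, and edgeR called 11 without vehicle replicate 1, 16 without HSP990 replicate 1 and 146 without HSP990 replicate 2. Over all genes the median log2 fold change was 0.01. By contrast, HSP990 called 255 genes in wild type muscle, 1.85% of the same 13754, with 199 rises and 56 falls, and 197 (1.43%) in R6/2 muscle, with 65 rises (0.473%) and 132 falls (0.96%).

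Amino acid genes made up much of the response called by edgeR. Of the 23 rises, 14 belonged to the lists of ATF4 targets, amino acid transport, serine and folate-dependent synthesis, or tRNA synthetases, and edgeR called no member lower. The 4 lists together held 78 tested genes, of which DESeq2 called 21 higher and 3 lower (Slc7a2, Slc7a8 and Qars). Over all genes tested DESeq2 called 88 higher and 54 lower, so these lists held a smaller part of its rises. Their median log2 fold change was 0.33, with 41 genes higher in both HSP990 libraries than in both vehicle libraries and 15 lower in both. Over all genes tested these shares were 18.7% and 19.4%. In wild type muscle, the same 78 genes gave 0 calls by edgeR, with 16 at an unadjusted p below 0.05 and 6 called by DESeq2, and a median of 0.06. Of all 13754 genes in wild type muscle, 1816 had an unadjusted p below 0.05 and DESeq2 called 542. The lists were assembled with earlier results of these data in view, so these counts describe them and do not test them. The calls rested on the spread shared over all 24 libraries. A fit to the 4 libraries alone, which leaves 2 residual degrees of freedom, called 0 genes by edgeR with 858 at an unadjusted p below 0.05, while DESeq2 on the same 4 libraries called 119.

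To show which sequence features stand at the start sites of some called ATF4 targets, promoter windows were taken from RefSeq on GRCm38.p6. They run from 250 bases before to 50 bases after the annotated start. They are written 5′ to 3′ on the strand of the gene. In the first 3, capitals mark the letters of the ATF4-C/EBP element TGATGNAA on either strand. In the window of Hspa1b, shown as a heat shock gene for contrast, capitals mark a pair of overlapping matches, on opposite strands, to a heat shock element without its last bases, read as GAA, any 2 bases, TTC, any 2 bases and G. The window of Sesn2 holds no match to TGATGNAA and has no capitals. No window is printed for the called ATF4 targets Ddit3 and Cebpg. That of the heat shock gene Dnajb1, also not printed, holds no match to the heat shock element without its last bases.
Fgf21, chr7:45615441-45615740, minus strand: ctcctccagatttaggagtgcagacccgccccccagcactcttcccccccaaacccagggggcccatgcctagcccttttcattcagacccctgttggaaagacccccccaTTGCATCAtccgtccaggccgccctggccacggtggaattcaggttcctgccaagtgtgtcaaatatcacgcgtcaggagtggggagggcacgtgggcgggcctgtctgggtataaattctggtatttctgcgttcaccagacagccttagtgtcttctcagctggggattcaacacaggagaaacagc
Trib3, chr2:152344011-152344310, minus strand: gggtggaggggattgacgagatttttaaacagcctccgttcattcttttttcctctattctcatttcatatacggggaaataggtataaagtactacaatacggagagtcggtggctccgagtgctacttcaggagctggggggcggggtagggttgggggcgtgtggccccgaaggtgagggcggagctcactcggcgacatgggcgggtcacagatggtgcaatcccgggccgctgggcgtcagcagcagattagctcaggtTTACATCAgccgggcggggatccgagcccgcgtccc
Jdp2, chr12:85599166-85599465, plus strand: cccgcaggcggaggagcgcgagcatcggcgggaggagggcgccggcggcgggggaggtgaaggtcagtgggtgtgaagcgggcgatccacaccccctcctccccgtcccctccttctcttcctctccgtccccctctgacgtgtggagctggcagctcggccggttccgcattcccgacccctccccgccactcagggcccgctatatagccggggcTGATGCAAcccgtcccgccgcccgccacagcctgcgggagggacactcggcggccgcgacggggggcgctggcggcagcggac
Sesn2, chr4:132510407-132510706, minus strand: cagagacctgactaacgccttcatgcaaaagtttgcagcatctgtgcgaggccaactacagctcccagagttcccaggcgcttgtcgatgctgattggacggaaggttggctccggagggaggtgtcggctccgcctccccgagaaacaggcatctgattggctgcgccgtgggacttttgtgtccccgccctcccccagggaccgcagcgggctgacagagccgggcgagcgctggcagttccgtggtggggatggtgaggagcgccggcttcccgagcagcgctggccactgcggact
Hspa1b, chr17:34959189-34959488, minus strand: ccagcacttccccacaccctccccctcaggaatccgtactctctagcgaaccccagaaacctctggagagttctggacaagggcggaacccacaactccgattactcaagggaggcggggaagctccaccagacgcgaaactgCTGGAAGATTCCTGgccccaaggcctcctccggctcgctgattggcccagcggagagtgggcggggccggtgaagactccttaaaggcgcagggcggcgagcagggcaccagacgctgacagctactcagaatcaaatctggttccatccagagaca

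Of the 23 genes that rose, 20 had a promoter window, and 7 of them held TGATGNAA on either strand (Trib3, Fgf21, Jdp2, Slc1a4, Aars, Arl14ep and Pacsin2). Over all genes with a window, 4.51% held it. None of the 20 held the shortened heat shock element, which 4.56% of all genes held. Of the 6 heat shock genes measured by qPCR in the study, 4 had a window and 3 of these held that shortened spelling (Hspa1a, Hspa1b and Hspb1). None of the 4 held the longer spelling, which ends in GAA in place of G and which 0.662% of all genes held. None of the 6 windows of genes that fell held either motif. These spellings were settled after others had been tried, and a match in a window is a description of letters, not a bound site.

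The ATF4 targets held the largest rises. Of 27 tested members of this list, 6 rose and 0 fell. Higher in both HSP990 libraries than in both vehicle libraries were 22, beside 18.7% of all genes tested. The median of the list was 1.01 in Hsf1-/- muscle and 0.17 in wild type muscle. Trib3 (chr2:152163158-152169768 in mm9) encodes a pseudokinase that is induced by ATF4 and CHOP and feeds back on them. It was at 1.04 and 2.57 CPM after vehicle and at 65.6 and 143 CPM after HSP990. This 57.1-fold rise (log2 5.84 ± 0.46 SE, 95% interval 4.86 to 6.81, n = 2 per group, edgeR adjusted p = 4.22e-06) compared with 2.77 and 2.37 CPM after vehicle and 4.29 and 3.08 CPM after HSP990 in wild type muscle. The Trib3 levels of treated knockout muscle thus lay far above those of every wild type library compared.

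Sesn2 (chr4:132047947-132066416 in mm9), a stress protein that binds leucine and restrains mTORC1, had the smallest adjusted p of all genes. Its levels were 4.10 and 3.78 CPM after vehicle and 57.2 and 92.4 CPM after HSP990, a 19.0-fold rise (log2 4.25 ± 0.29 SE, edgeR adjusted p = 7.99e-07). The wild type libraries stayed between 5.05 and 9.33 CPM whether or not HSP990 had been given. The gene overlaps a predicted transcript on its own strand, Gm12981. Sesn2 is also a p53 target, and it was the only one of 20 tested p53 targets to be called, with a list median of -0.03.

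Fgf21 encodes a hormone that stressed muscle can secrete. It was almost silent after vehicle, with 0 and 4 reads, and had 218 and 166 reads after HSP990, or 4.90 and 7.27 CPM. The fitted rise was 6.06 ± 1.03 on the log2 scale (95% interval 3.80 to 8.33, edgeR adjusted p = 0.0441). The call was lost when any of the 4 libraries was left out, with an adjusted p of up to 0.199, although the groups did not overlap. In wild type muscle the gene was listed at 0 in both vehicle libraries and at 0.2 and 0 CPM after HSP990. The interval of the difference from wild type, -10.10 to 13.22, leaves no bound of use.

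Ddit3 encodes CHOP, a transcription factor made downstream of ATF4. It was at 8.95 and 11.0 CPM after vehicle and at 44.6 and 92.8 CPM after HSP990, a 6.88-fold rise (log2 2.78 ± 0.42 SE, edgeR adjusted p = 0.0049). Ddit3 overlaps Mars on the other strand, and the source of the counts does not say whether strand was used, so part of its reads could belong to that gene. Jdp2, a bZIP repressor of AP-1, rose from 4.19 and 6.14 to 16.0 and 20.6 CPM (3.53-fold, edgeR adjusted p = 0.00582). Cebpg, the C/EBP protein that dimerises with ATF4, rose from 89.3 and 97.3 to 191 and 209 CPM (log2 1.10 ± 0.17 SE, edgeR adjusted p = 0.00477). It was the only one of 5 tested C/EBP genes to be called.

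Other ATF4 targets lay higher but missed the threshold. Atf4 itself was at 275 and 303 CPM after vehicle and 400 and 451 CPM after HSP990 (log2 0.56, edgeR adjusted p = 0.29). Atf5 was at 135 and 151 CPM and then 289 and 312 CPM (adjusted p = 0.097). Atf3 was at 11.1 and 10.5 CPM and then 58.0 and 219 CPM, a log2 difference of 3.68 ± 1.34 SE with an adjusted p of 0.39. In these 3 genes the treated libraries lay above both vehicle libraries, and in Atf3 the treated pair also differed widely from each other. Asns, asparagine synthetase, was at 2.12 and 4.98 CPM after vehicle and 21.3 and 8.54 CPM after HSP990 (log2 2.07, edgeR adjusted p = 0.17). DESeq2 on 24 libraries called 9 of the 27 targets, adding Asns, Atf5 and Aldh18a1.

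**Figure D1:**
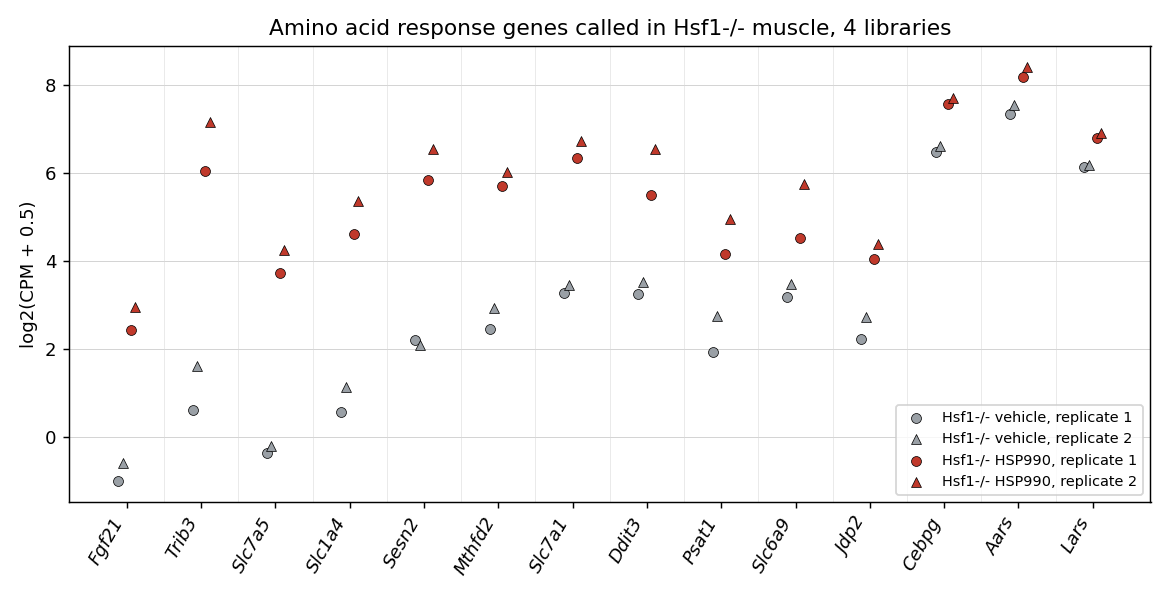
Level of the 14 amino acid response genes called in Hsf1-/- muscle, as log2(CPM + 0.5) in each of the 4 libraries; grey marks vehicle, red marks HSP990, circles replicate 1 and triangles replicate 2. For every gene both red symbols lie above both grey symbols, which the choice of called genes nearly fixes. Levels run from Fgf21 at the bottom of the range to Aars at the top.

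Carriers of amino acids formed the next group. Of 20 tested transport genes, 4 rose and 0 fell. In both HSP990 libraries 8 members were higher and 5 lower, beside 18.7% and 19.4% of all genes tested. The median of the list was 0.31, beside 0.21 in wild type muscle. Slc7a5 (chr8:124405052-124431594 in mm9), the light chain of the large neutral amino acid carrier LAT1, was at 0.282 and 0.374 CPM after vehicle and at 12.8 and 18.7 CPM after HSP990. These values rest on 6, 9, 571 and 426 reads and give a 47.1-fold rise (log2 5.56 ± 0.46 SE, edgeR adjusted p = 5.97e-06). Its wild type levels were 0.745 and 0.775 CPM after vehicle and 1.45 and 1.83 CPM after HSP990. The gene was thus lower in knockout than in wild type vehicle muscle and higher after treatment, without overlap of any 2 groups. Its heavy chain Slc3a2 was not called (log2 0.41, edgeR adjusted p = 0.27).

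Slc1a4, the neutral amino acid carrier ASCT1, rose from 0.989 and 1.70 CPM to 23.8 and 40.9 CPM (23.8-fold, log2 4.57 ± 0.45 SE, edgeR adjusted p = 3.36e-05). Slc7a1, the cationic amino acid carrier CAT-1, rose from 9.23 and 10.5 CPM to 80.5 and 105 CPM (9.42-fold, adjusted p = 0.000506). Slc6a9, the glycine carrier GlyT1, rose from 8.57 and 10.7 CPM to 22.4 and 53 CPM (3.90-fold, adjusted p = 0.00706), and its locus overlaps B4galt2. In all 3 the treated libraries lay well clear of the vehicle libraries. Slc38a2, the carrier SNAT2, varied within both groups, at 149 and 312 CPM after vehicle and 493 and 616 CPM after HSP990 (log2 1.27, edgeR adjusted p = 0.35). Slc7a11, the cystine carrier, was at most 2.10 CPM in the 4 libraries (log2 3.48 ± 0.89 SE, adjusted p = 0.17). The arginine carrier Slc7a2 and the neutral carrier Slc7a8 had lower means after HSP990, with log2 differences of -1.02 and -1.26 that missed the threshold of edgeR (adjusted p = 0.17 and 0.27) and were called by DESeq2.

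In serine and folate-dependent synthesis, 2 of 12 tested genes rose and the median of the list was 0.00. Mthfd2 (chr6:83255685-83267600 in mm9), a mitochondrial folate enzyme, was at 4.94 and 7.14 CPM after vehicle and 51.6 and 65.1 CPM after HSP990 (9.63-fold, log2 3.27 ± 0.31 SE, edgeR adjusted p = 2.64e-05). Psat1, the aminotransferase of serine synthesis, rose from 3.34 and 6.27 CPM to 17.3 and 30.5 CPM (4.95-fold, adjusted p = 0.00688). The remaining steps did not follow as a block. Phgdh, which opens the serine pathway, had a log2 difference of 0.23 (adjusted p = 0.95), Shmt2 of 0.05, and Aldh1l2 was at 23.1 and 21.1 CPM and then 59.97 and 50.7 CPM (log2 1.33, adjusted p = 0.13).

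Genes of tRNA charging moved less. Of 23 tested aminoacyl-tRNA synthetases, Aars and Lars rose and none fell by edgeR, with a median of 0.09. In both HSP990 libraries 10 were higher and 7 lower, beside 18.7% and 19.4% of all genes tested. Aars, the alanyl enzyme, rose from 162 and 187 CPM to 291 and 342 CPM (edgeR adjusted p = 0.0166), and Lars, the leucyl enzyme, from 70.1 and 71.7 CPM to 110 and 121 CPM (log2 0.70 ± 0.10 SE, adjusted p = 0.00447). Xpot, which exports tRNA from the nucleus and stands outside these lists, rose from 39.0 and 38.9 CPM to 71.6 and 73.1 CPM (log2 0.89 ± 0.11 SE, edgeR adjusted p = 0.000466). The replicates of Xpot differed by far less than the groups did. Yars and Qars had log2 differences of 0.52 and -0.39 and missed the threshold of edgeR (adjusted p = 0.09 and 0.14). DESeq2 called 6 of the 23 synthetases, with Aars, Lars, Gars, Nars and Yars higher and Qars lower.

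In each of the 14 amino acid genes called, HSP990 replicate 2 gave the higher of the 2 treated levels. The share of all genes for which this held was not counted. Without HSP990 replicate 1, edgeR still called 13 of the 14 (all but Fgf21). It still called 12 without HSP990 replicate 2 (all but Aars and Fgf21), 10 without vehicle replicate 2 and 6 without vehicle replicate 1, the last being Trib3, Sesn2, Slc7a5, Slc7a1, Slc1a4 and Mthfd2.

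A further list held chaperones of the endoplasmic reticulum (ER) and other genes of its unfolded protein response. It left out Ddit3 and Trib3, which rose and were counted with the ATF4 targets. The study reported unfolded protein response terms among the genes raised by HSP990 in Hsf1-/- mice. Beside them it listed terms for gene activation by ATF4 and for amino acid transport. The genes of the study's terms were not tested here as such. Of the list used here, none of 30 tested genes was called by edgeR or by DESeq2 in Hsf1-/- muscle. In it 1 gene (Ern1, log2 0.46) had an unadjusted p below 0.05 by edgeR, and the median was 0.08. Hspa5, the ER chaperone BiP, was at 106 and 108 CPM after vehicle and 128 and 106 CPM after HSP990, so the groups overlapped (log2 0.13, 95% interval -0.18 to 0.44).

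No heat shock gene of the chaperone lists was called in Hsf1-/- muscle. The lists of HSP70, HSP90 with its co-chaperones, DNAJ proteins, small HSPs with BAG factors, and chaperonins held 66 tested genes. None was called by edgeR or by DESeq2, 5 had an unadjusted p below 0.05 (1 higher and 4 lower), and their fitted log2 fold changes ran from -1.23 to 0.96 around a median of 0.01. In wild type muscle, 27 of the same 66 rose and 1 fell, with a median of 0.38. The difference of the responses, Hsf1-/- minus wild type, was called for 20 of the 66, all lower in Hsf1-/-, where 0.422% of all genes tested were called. These 20 made up part of the 45 genes whose response was lower in Hsf1-/-, and 44 of the 45 were called rises in wild type muscle.

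Hspa1b, an inducible HSP70, was at 4.14 and 2.66 CPM after vehicle and 3.19 and 3.85 CPM after HSP990 in Hsf1-/- muscle. In wild type muscle it went from 21.4 and 16.0 CPM to 3161 and 2787 CPM. The knockout response was 0.05 with a 95% interval of -1.07 to 1.16, the wild type response was 7.32, and the difference was -7.27 ± 0.73 SE (edgeR adjusted p = 4.82e-05). Hspa1a, its near-identical neighbour, was at 3.77 and 3.36 CPM and then 4.93 and 9.15 CPM, with an interval of -0.23 to 2.15. Reads can be shared between these copies, so each value of the pair is uncertain. Dnajb1, the HSP40 partner of HSP70, was at 8.00 and 9.13 CPM and then 8.80 and 6.96 CPM in Hsf1-/- muscle, against 9.39 and 11.8 CPM and then 327 and 315 CPM in wild type muscle. Its difference was -5.03 ± 0.45 SE (edgeR adjusted p = 1.07e-05).

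Hsp90aa1, the inducible cytosolic HSP90, was the gene of the chaperone lists with an unadjusted p below 0.05 upwards. It was at 6.45 and 7.02 CPM after vehicle and 13.0 and 9.46 CPM after HSP990 (log2 0.74 ± 0.25 SE, 95% interval 0.21 to 1.27, edgeR adjusted p = 0.336). The groups did not overlap, yet the level stayed far from the 464 and 386 CPM of wild type muscle after HSP990. The difference of the responses was -4.28 ± 0.35 SE (adjusted p = 4.47e-06), and near-identical copies of Hsp90aa1 elsewhere in the genome make its counts uncertain. Hsp90ab1, the constitutive form, was at 1169 and 1093 CPM and then 948 and 1004 CPM in Hsf1-/- muscle, with an interval of -0.50 to 0.08. Hspb1, which encodes HSP25, was at 20.2 and 23.2 CPM and then 17.3 and 31.97 CPM, with an interval of -0.67 to 1.01, and its difference from wild type was -3.26 (adjusted p = 0.0101).

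Co-chaperones and partners of HSP70 were likewise not called in Hsf1-/- muscle. Dnaja1 was at 2.92 and 2.28 CPM after vehicle and 3.13 and 3.07 CPM after HSP990, and the difference from wild type was -3.50 (edgeR adjusted p = 2.35e-06). Bag3, the partner of HSP70 in autophagy, was at 187 and 200 CPM and then 188 and 238 CPM, with a difference of -2.24 ± 0.24 SE. Hsph1, an HSP110, was at 53.3 and 62.8 CPM and then 62.2 and 57.9 CPM, with a difference of -2.08 ± 0.26 SE. Unc45b, the myosin chaperone of muscle, was at 529 and 451 CPM and then 395 and 410 CPM in Hsf1-/- muscle (log2 -0.28, edgeR adjusted p = 0.506). In wild type muscle it rose from 589 and 600.3 CPM to 2454 and 2535 CPM. Nle1, a ribosome assembly factor that neighbours Unc45b on chromosome 11, had the smallest adjusted p of all differences from wild type (-5.06 ± 0.32 SE, adjusted p = 2.4e-07). It was at 8.85 and 10.7 CPM and then 6.10 and 6.57 CPM in Hsf1-/- muscle, and at 10.5 and 10.7 CPM and then 200.5 and 257 CPM in wild type muscle.

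**Figure D2:**
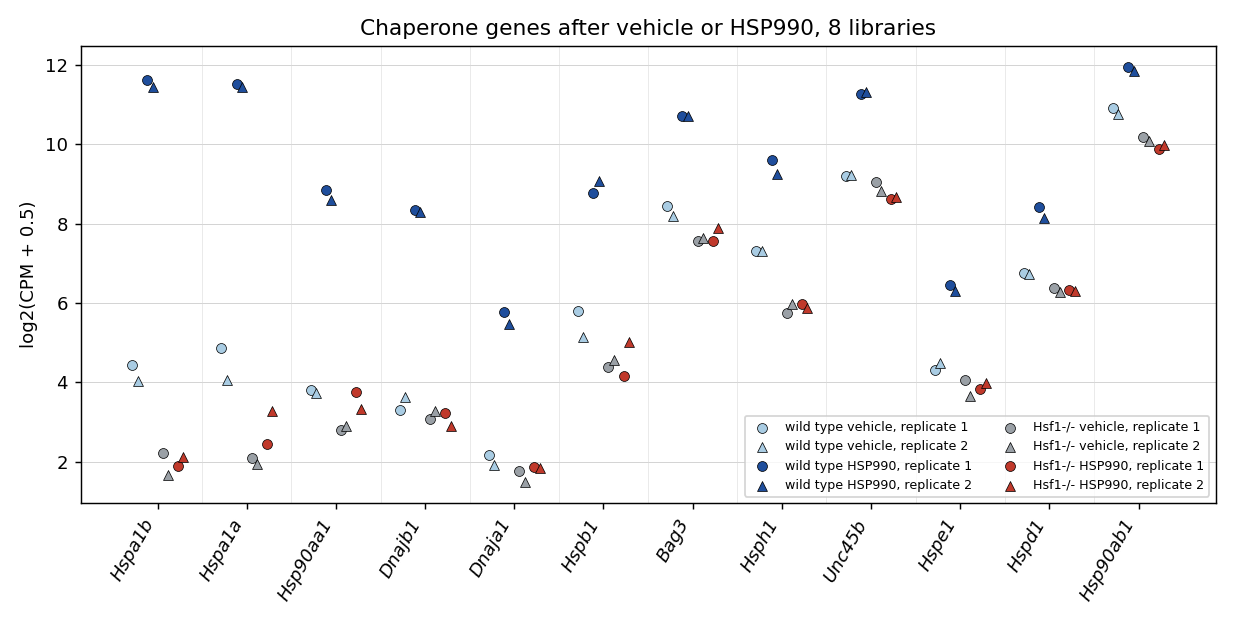
Level of 12 chaperone genes as log2(CPM + 0.5) in 8 libraries; light blue marks wild type vehicle, dark blue wild type HSP990, grey Hsf1-/- vehicle and red Hsf1-/- HSP990, with circles for replicate 1 and triangles for replicate 2. The dark blue symbols stand above all others in every gene, as for Hspa1b at 3161 and 2787 CPM, while the red symbols lie near the grey ones.

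The 23 rises of Hsf1-/- muscle were chosen on the same knockout libraries, which favours a larger response than in wild type muscle. The counts that follow are therefore no independent test. By edgeR the response was called larger for 7 of the 23, where 0.0945% of all genes were called higher. These were Trib3 (5.32 ± 0.60 SE, edgeR adjusted p = 0.00011), Sesn2 (3.70 ± 0.38 SE, adjusted p = 5.45e-05), Slc7a5, Slc1a4, Mthfd2, Arl14ep and Xpot. The difference was 4.45 for Slc7a5 (adjusted p = 0.00106), 2.88 for Slc1a4 (0.0447), 2.18 for Mthfd2 (0.0218), 1.29 for Arl14ep (0.0061) and 0.75 for Xpot (0.0335). For Ddit3 it was 2.02, with an adjusted p of 0.257, and for Slc7a1 it was 1.90, with an adjusted p of 0.245. DESeq2 on 24 libraries called the difference for 16 of the 23 rises, where it called 36 of all 13754 genes higher and 82 lower. By edgeR, 23 of the 30 called genes had no called difference from wild type. Lpar6 and Siah2 among the rises, 8.7% of them and 1.01% of the wild type rises, were also called in wild type muscle by edgeR. DESeq2 called 5 of the 23 there, adding Slc7a1, Slc1a4 and Mthfd2, where it called 542 of all 13754 genes. The median log2 fold change of the 23 rises was 1.91 in Hsf1-/- muscle, which is fixed by how they were chosen, and 0.45 in wild type muscle, where 20 of the 23 had the same sign.

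**Figure D3:**
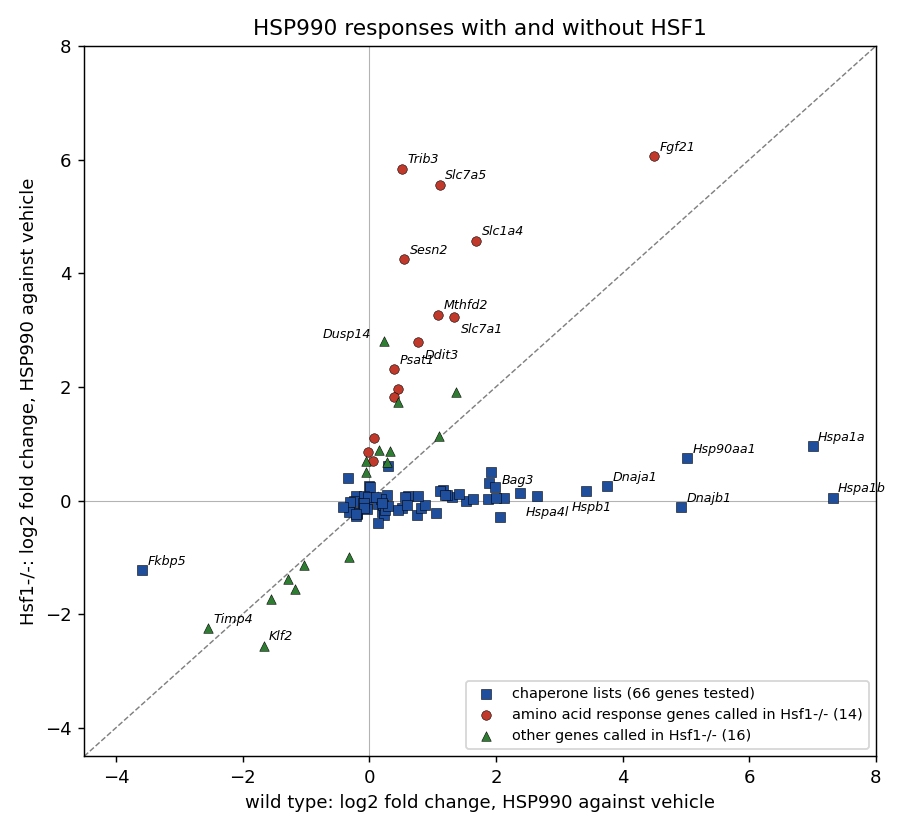
Log2 fold change after HSP990 in wild type muscle (horizontal) and in Hsf1-/- muscle (vertical); blue squares are the 66 tested chaperone genes, red circles the 14 amino acid response genes called in Hsf1-/- muscle, green triangles the other 16 called genes, and the dashed line marks equal responses. The blue squares spread along the horizontal axis, up to 7.32 for Hspa1b, and the red circles along the vertical one, up to 6.06 for Fgf21, whose wild type value rests on CPM of 0, 0, 0.2 and 0.

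Rises outside the amino acid lists were of several kinds. Arl14ep, an effector of a small GTPase, had narrow replicates, at 16.7 and 14.0 CPM after vehicle and 47.3 and 55.3 CPM after HSP990 (3.34-fold, log2 1.74 ± 0.15 SE, edgeR adjusted p = 1.01e-05). Its untreated and heat-shocked levels in other Hsf1-/- mice lay between 16.5 and 19.1 CPM, so the 2 treated libraries stood apart from all other Hsf1-/- libraries. Dusp14, a phosphatase of MAP kinases, rose from 6.4 and 3.9 CPM to 34.2 and 37.4 CPM (6.96-fold, edgeR adjusted p = 0.012). Nf1, which encodes the RAS regulator neurofibromin, rose from 40.1 and 35.5 CPM to 61.1 and 60.6 CPM (log2 0.69 ± 0.13 SE, adjusted p = 0.0322), with small genes nested inside its locus. Dusp7, which acts on the same kinases, was at 41.3 and 46.99 CPM and then 12.2 and 20.8 CPM and missed the threshold of edgeR (log2 -1.43, adjusted p = 0.0508). Of the 19 tested genes of ERK feedback, DESeq2 called Dusp7 lower and Dusp4, Dusp8 and Nf1 higher.

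Lpar6, a receptor for lysophosphatidic acid inside the Rb1 gene on the other strand, rose from 8.29 and 9.22 CPM to 37.7 and 28.2 CPM (3.77-fold, edgeR adjusted p = 0.0049). Siah2, a ubiquitin ligase, rose from 19.4 and 16.3 CPM to 39.8 and 38.4 CPM (log2 1.13, adjusted p = 0.0456), with 1.10 in wild type muscle. Pacsin2, which bends membranes in endocytosis, rose from 30.8 and 28.8 CPM to 56.8 and 51.5 CPM (log2 0.86, adjusted p = 0.0049). The called genes Clic4 and Tex261 complete the rises, with log2 fold changes of 0.68 and 0.50, and are named here after their values were seen.

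The 7 falls were led by Klf2 and Timp4. Klf2, the flow-responsive transcription factor of endothelial cells, was at 50.05 and 22.3 CPM after vehicle and 7.15 and 4.99 CPM after HSP990 (log2 -2.56 ± 0.38 SE, edgeR adjusted p = 0.00477). Timp4, an inhibitor of matrix metalloproteinases, was at 59.7 and 57.7 CPM and then 10.9 and 13.9 CPM (log2 -2.25 ± 0.33 SE, adjusted p = 0.00447), and its locus lies within Syn2. Lrrc30 was at 260.3 and 157 CPM and then 63.6 and 61.3 CPM (log2 -1.74, adjusted p = 0.0278). In Klf2 and Lrrc30 the vehicle mice differed from each other more than the treated mice did, yet the groups did not overlap.

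Adgrg1, the adhesion receptor GPR56, fell from 71.0 and 49.4 CPM to 25.1 and 15.9 CPM (log2 -1.55, edgeR adjusted p = 0.0312). Slc9a3r2, the scaffold protein NHERF2, fell from 16.8 and 21.0 CPM to 7.49 and 6.96 CPM (log2 -1.38 ± 0.20 SE, adjusted p = 0.00447). Slc43a3, a nucleobase carrier, fell from 76.0 and 58.8 CPM to 25.6 and 36.0 CPM (adjusted p = 0.0295). Tnip1, a brake on NF-kB signalling, fell from 79.4 and 80.4 CPM to 41.9 and 38.8 CPM (edgeR adjusted p = 0.0159). Tnip1 had the narrowest replicates of these 4.

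Most of the falls were called in wild type muscle too. All but Tnip1, 6 of the 7, were called there with the same sign, 85.7% of the falls and 10.7% of the 56 wild type falls, although the wild type mice shared no sample with the knockout mice. The wild type log2 fold changes were -1.67 for Klf2, -2.55 for Timp4, -1.55 for Lrrc30, -1.18 for Adgrg1, -1.28 for Slc9a3r2 and -1.03 for Slc43a3. In R6/2 muscle 5 of the 7 falls were called (all but Lrrc30 and Tnip1), as was Lpar6 among the rises. None of the 7 differences from wild type was called by edgeR or by DESeq2, with 1 (Tnip1) at an unadjusted p below 0.05 and a 95% interval of -2.00 to 0.22 for Klf2 and -0.66 to 1.26 for Timp4. Without HSP990 replicate 1, the library with more fat transcripts, the same test called 1 fall and 15 rises in all. With adipocyte markers as a covariate it called 8 falls and 21 rises.

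**Figure D4:**
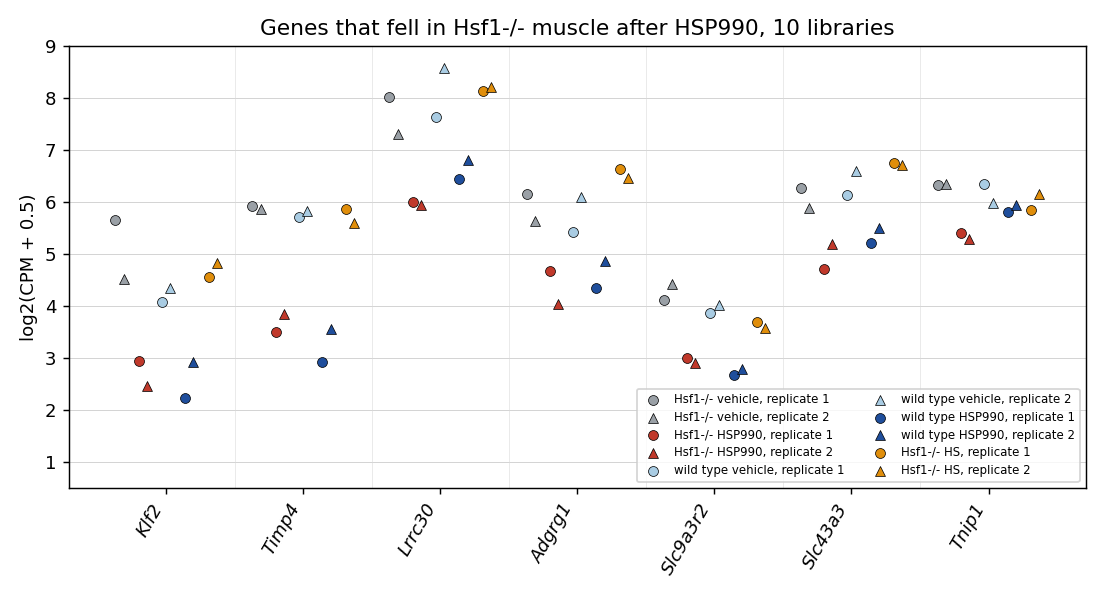
Level of the 7 genes that fell in Hsf1-/- muscle as log2(CPM + 0.5) in 10 libraries; grey marks Hsf1-/- vehicle, red Hsf1-/- HSP990, light blue wild type vehicle, dark blue wild type HSP990 and orange Hsf1-/- HS, with circles for replicate 1 and triangles for replicate 2. The red symbols lie below the grey ones in all 7 genes, which the choice of called genes nearly fixes. Except for Tnip1, the red symbols lie near the dark blue ones, while the orange symbols stay high.

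The other lists are described by their members. Over all genes tested in Hsf1-/- muscle, 18.7% lay higher and 19.4% lower in both HSP990 libraries. Of all 13754 genes, 1304 had an unadjusted p below 0.05 by edgeR and DESeq2 called 142. Targets of the glucocorticoid receptor, a client of HSP90, had a median log2 fold change of -0.68, with 11 of 25 tested genes lower in both HSP990 libraries and 1 higher. None was called by edgeR, 6 had an unadjusted p below 0.05, and DESeq2 called Arrdc2 and Sult1a1. Arrdc2 was at 209.8 and 51.2 CPM after vehicle and 19.9 and 27.6 CPM after HSP990 (log2 -2.46 ± 0.68 SE, edgeR adjusted p = 0.21). Fkbp5, an immunophilin induced by glucocorticoids, was at 76.4 and 299 CPM after vehicle and 61.2 and 99.1 CPM after HSP990 and so overlapped between the groups (log2 -1.23, adjusted p = 0.58). In wild type muscle the list had a median of -1.21 with 6 calls, all falls, Fkbp5 among them at -3.58. The vehicle mice of the knockout differed widely in these genes, and the difference from wild type was called for none of the 25 by edgeR or DESeq2, with 2 at an unadjusted p below 0.05.

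Shear-stress and Notch genes of endothelium had a median of -0.31, with Klf2 the 1 gene called of 19 tested by edgeR, 8 lower in both HSP990 libraries and 1 higher. DESeq2 called 4 of them (Klf2, Klf4, Gja4 and Edn1, 3 lower and 1 higher). Klf4, the relative of Klf2, had a log2 difference of -1.09 (edgeR adjusted p = 0.14). The 8 endothelial markers had a median of -0.07 with none called by edgeR or DESeq2, 2 at an unadjusted p below 0.05, 3 higher and 2 lower in both HSP990 libraries, so the marker list as a whole did not move with Klf2. In bulk muscle, fewer cells of a type and less RNA per cell cannot be told apart. Immediate early genes had a median of 0.50, with 14 of 24 higher in both HSP990 libraries and none called by edgeR, with 8 at an unadjusted p below 0.05 and 4 called by DESeq2. NRF2 targets had a median of 0.22 with none of 24 called, 9 at an unadjusted p below 0.05 and Hmox1 called by DESeq2. Genes of the sarcomere had a median of -0.23, with none of 40 called by edgeR or DESeq2 and 5 at an unadjusted p below 0.05. Of the 40, 20 were lower in both HSP990 libraries, beside 19.4% of all genes tested.

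**Figure D5:**
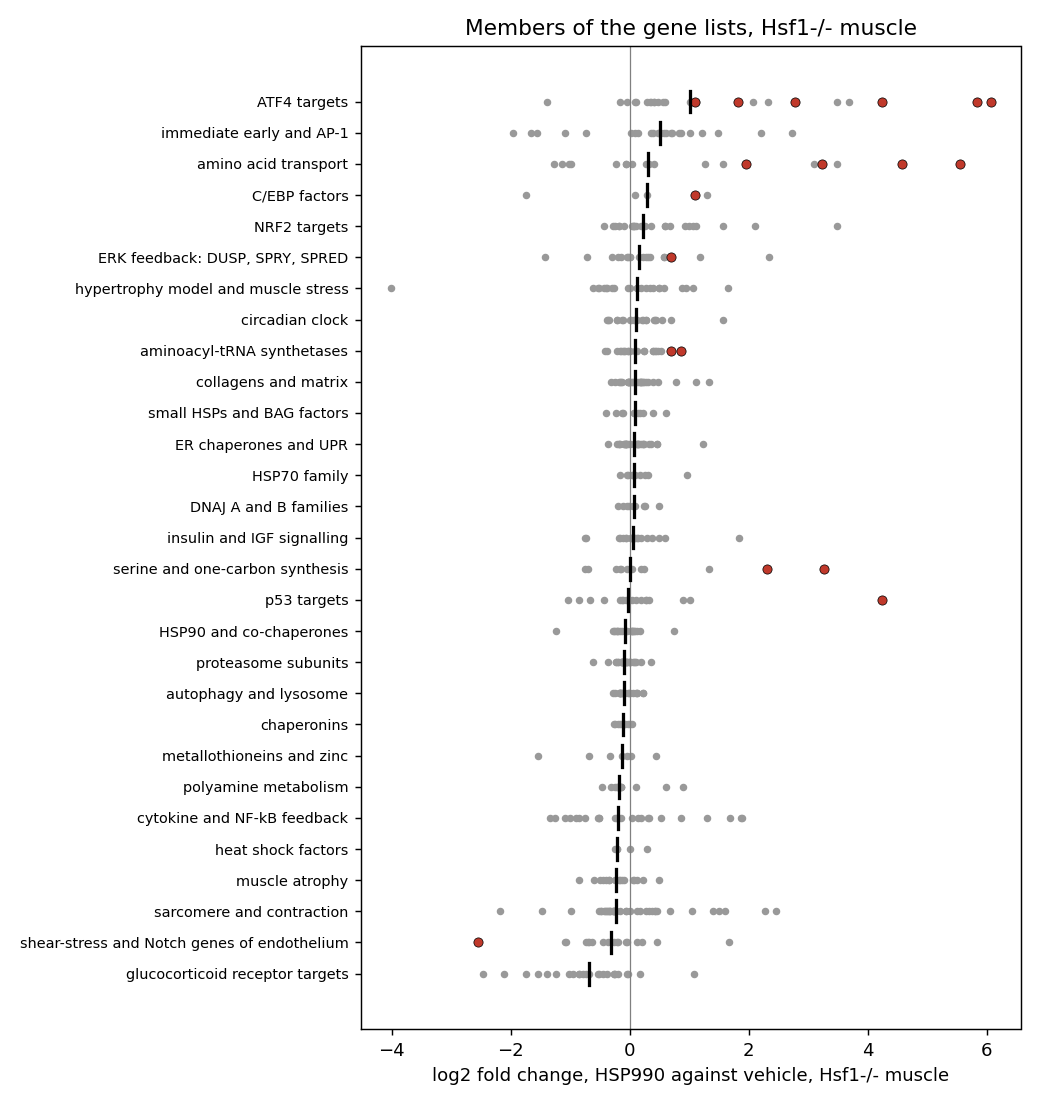
Log2 fold change after HSP990 in Hsf1-/- muscle for every tested member of 29 gene lists; each grey point is a gene, red points are called genes and black bars are list medians. ATF4 targets have the highest median, 1.01, glucocorticoid receptor targets the lowest, -0.68, and the chaperone lists centre near 0.

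Of the 58 genes whose response differed from wild type, 33 lay outside the chaperone and amino acid lists. Serpinh1, the collagen chaperone HSP47, had a difference of -2.50 and belonged to the collagen and matrix list, where 5 of 33 tested genes were called in wild type muscle, the median there was 0.90, and 3 differences were called lower in Hsf1-/-. The median of that list in Hsf1-/- muscle was 0.09, with none called by either tool and 2 at an unadjusted p below 0.05. Asb15, an ankyrin repeat protein of muscle, moved in opposite directions. It was at 24.6 and 16.0 CPM after vehicle and 34.8 and 44.7 CPM after HSP990 in Hsf1-/- muscle (log2 0.97, edgeR adjusted p = 0.139), and it fell in wild type muscle from 86.1 and 98.5 CPM to 50.5 and 46.9 CPM. The difference of the responses was 1.89 ± 0.33 SE (adjusted p = 0.00947). Pcp4l1 had a difference of 2.60 (adjusted p = 0.0186), from log2 changes of 1.49 and -1.10 of which neither was called.

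The response to HSP990 was then set against that to HS within Hsf1-/- muscle. HS called 1 gene in Hsf1-/- muscle by edgeR, 0.00727% of those tested, with 1211 at an unadjusted p below 0.05, and 161 by DESeq2. The difference of the responses, HSP990 minus HS, was called for 20 genes, 0.145%, of which 7 were higher (0.0509%) and 13 lower (0.0945%) with HSP990. Of the 23 rises, 6 were among the 7. The rises were chosen on the same HSP990 and vehicle libraries, which favours such differences. After HS, 21 of the 23 had the same sign, with a median log2 fold change of 0.29. The 78 amino acid genes had a median of 0.19 after HS. EdgeR called 0 of them and DESeq2 called 6, all higher, Slc7a5 and Slc7a1 among them. At an unadjusted p below 0.05, 22 of the 78 were higher and 1 lower. Trib3 went from 2.07 and 1.56 CPM after mock treatment to 4.47 and 2.54 CPM after HS, and its difference was 4.89 ± 0.60 SE (edgeR adjusted p = 0.00173). Sesn2 went from 3.70 and 4.44 CPM to 8.33 and 6.00 CPM, with a difference of 3.43 ± 0.38 SE (adjusted p = 0.00117). The others were Slc7a5 (3.30, adjusted p = 0.0495), Slc1a4 (3.33, 0.0351), Mthfd2 (2.23, 0.0471) and Arl14ep (1.74, 0.00173). The Slc7a5 difference was lost when any of the 8 libraries was left out (adjusted p up to 0.273), that of Slc1a4 was kept in 3 of 8 (up to 0.272), and those of Trib3 and Sesn2 were kept in all 8. In each of these 6 genes both HS libraries lay below both HSP990 libraries.

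Of the falls, 4 had a called difference from HS by edgeR and all 7 by DESeq2. Over all 13754 genes, edgeR called this difference lower for 13 and DESeq2 for 121. The falls too were chosen on the same HSP990 and vehicle libraries, which favours such differences. The difference was -2.71 ± 0.41 SE for Adgrg1 (edgeR adjusted p = 0.0128), -2.62 ± 0.45 SE for Lrrc30 (0.0246), -1.96 ± 0.29 SE for Slc43a3 (0.0128) and -1.29 ± 0.24 SE for Tnip1 (0.0471). Adgrg1 was at 37.9 and 45.3 CPM after mock treatment and 98.5 and 87.7 CPM after HS, the opposite direction to HSP990, although that change alone was not called (adjusted p = 0.142). Further genes lower with HSP990 than with HS were Zfp36, which destabilises AU-rich mRNAs (-4.07 ± 0.78 SE, edgeR adjusted p = 0.0499), Arhgap26 (-3.18, 0.0351) and Mcf2l (-2.94, 0.0193), and the mitochondrial folate enzyme Mthfd1l (-2.63, 0.0471). Leaving out 1 library kept the call of Zfp36 in 1 of 8 cases, of Arhgap26 and Mcf2l in 3 and of Mthfd1l in 0. Without Hsf1-/- control replicate 2, none of the 13 lower calls was left by edgeR, and Adgrg1 and Lrrc30 had adjusted p of 0.0871 and 0.232. Zfp36 was at 42.3 and 16.0 CPM after vehicle and 9.27 and 9.11 CPM after HSP990, and at 24.3 and 19.2 CPM after mock treatment and 116 and 114 CPM after HS. None of the 66 chaperone genes had a called difference between HSP990 and HS in Hsf1-/- muscle by edgeR or DESeq2, with 1 at an unadjusted p below 0.05. Hspa1b was at 1.27 and 1.18 CPM after mock treatment and 1.21 and 0.914 CPM after HS, where wild type muscle after HS reached 853 and 858 CPM. Y-linked genes had 4781 and 5039 counts in the Hsf1-/- HS libraries and 0 and 0 in the wild type HS libraries. Sex by these counts, age and genotype thus cannot be told apart in that comparison.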

How the data were processed

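Polyadenylated RNA of mouse quadriceps femoris was sequenced by a strand-specific, paired-end protocol. Per the study's methods and the submitters' processing notes, the authors aligned reads with Bowtie to mm9 and deposited raw counts per gene for 24 libraries. The counting program, its annotation and its use of strand are not given in the sources used here. The table held 18669 genes, of which 18594 had a symbol, and 2855 were at 0 in every library.

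From the deposited counts, 13754 genes were kept (2 or more counts in 10 or more libraries) and fitted in R 4.3.3 with edgeR 4.0.16 (quasi-likelihood, TMM scaling, limma 3.58.1 installed beside it) on all 24 libraries as 12 groups, with 12 residual degrees of freedom and Benjamini-Hochberg adjustment at 0.05. The contrasts were HSP990 minus vehicle in Hsf1-/- muscle, the difference of that response from wild type, and its difference from HS. The study's methods name DESeq2, and DESeq2 1.42.0 was an alternative here, as were RLE factors, no scaling factors, other filters, a replicate block, an adipocyte covariate, fits to fewer libraries and each library left out. CPM were computed with TMM factors and intervals cover 95%. The p-values of the main fit rest on the spread between samples within groups, shared over the 12 groups, and not on the compared groups alone. Scripts were tested on simulated data. Near-identical copies were sought with minimap2 2.31 (at least 98% identity over at least 50% of a transcript).

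The genes and lists were chosen with earlier results of these data known. Named are Hsf1, the heat shock genes the study measured by qPCR, called list members, up to 3 most abundant members of lists without a call, the 20 called rises and 15 called falls of largest size whose groups do not overlap and whose mean is at least 1 CPM, and the 10 largest called differences of responses. Others named were chosen after their values were seen, to describe the lists.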

Additional observations from a re-analysis of the deposited data

Results flagged for a closer look

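These values passed a test of a difference between the responses of groups (edgeR, Benjamini-Hochberg, all differences log2 values). The response to HSP990 differed between Hsf1-/- and wild type muscle for 58 genes, and within Hsf1-/- muscle between HSP990 and HS for 20 genes. No group had the 4 samples needed for a test of single outlying libraries.

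Lower in Hsf1-/- than in wild type were the responses of the heat shock genes Hspa1b (-7.27), Hspa1a (-6.04), Dnajb1 (-5.03), Hsp90aa1 (-4.28), Dnaja1 (-3.50), Hspb1 (-3.26), Unc45b (-2.35) and Hsp90ab1 (-1.26), and of the ribosome assembly factor Nle1 (-5.06). Higher in Hsf1-/- were Trib3 (5.32), Slc7a5 (4.45), Sesn2 (3.7), Slc1a4 (2.88), Mthfd2 (2.18), Arl14ep (1.29) and Xpot (0.75). Age differed with genotype in this comparison, at 8 and 12 weeks, and the effects cannot be told apart.

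Within Hsf1-/- muscle, HSP990 gave larger responses than HS for Trib3 (4.89), Sesn2 (3.43), Slc1a4 (3.33), Slc7a5 (3.3), Mthfd2 (2.23) and Arl14ep (1.74). It gave lower responses for Zfp36 (-4.07), Arhgap26 (-3.18), Mcf2l (-2.94), Adgrg1 (-2.71), Mthfd1l (-2.63), Lrrc30 (-2.62), Slc43a3 (-1.96) and Tnip1 (-1.29). The mice of these experiments were 8 and 10 weeks old, and age and treatment cannot be told apart here either.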

How the results depend on the processing

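The number of genes called depended on the tool and on single libraries. All 30 genes called in Hsf1-/- muscle had the same sign under every alternative that gave them a value. Their groups did not overlap, so the choice of called genes nearly fixes this. DESeq2 called 142 genes on 24 libraries, the 30 among them, and 119 on the 4 libraries compared, where edgeR called 0 with 2 residual degrees of freedom. Leaving out 1 library gave 11 (without vehicle replicate 1) to 146 calls (without HSP990 replicate 2), with 20 without vehicle replicate 2 and 16 without HSP990 replicate 1. Of the 30, 8 stayed called without each library (Trib3, Sesn2, Slc7a5, Slc7a1, Slc1a4, Mthfd2, Arl14ep and Xpot) and 22 were lost at least once. Fgf21, Tnip1 and Tex261 were lost whichever library was left out, with adjusted p up to 0.199, 0.119 and 0.277. Library size alone as the scaling moved the median of all genes to 0.16 and gave 43 calls, 38 higher and 5 lower.

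The 58 differences from wild type became 118 and 128 with DESeq2 on 24 and on 8 libraries, 24 with edgeR on 8, and 36 (without wild type vehicle replicate 2) to 73 with 1 library left out. The 20 differences from HS became 11 with library size only, 179 and 225 with DESeq2, and 3 (without Hsf1-/- control replicate 2) to 81 (without HSP990 replicate 2) with 1 library left out. The 14 calls among the 78 genes of the amino acid lists became 24 and 22 with DESeq2, 0 with edgeR on 4 libraries, and 6 (without vehicle replicate 1) to 13 with 1 library left out. The 20 chaperone differences ranged from 16 to 19 with 1 library left out.

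A replicate block gave 24, 54 and 17 calls in the 3 comparisons. The labels do not say that a number marks anything shared. The deviations of same-numbered libraries correlated at -0.107 between the Hsf1-/- vehicle and HSP990 groups and at -0.333 to 0.346 over all 66 pairs of groups, 10 of them over 0.1. With the vehicle numbers crossed, a choice made after seeing the data, 25 genes were called. The cause of these changes was not tested. The precision of every value is limited by 2 samples per group.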
